A study of Mus musculus with 32 samples.

Results

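Heat shock chaperone genes were followed through gene expression, cisplatin damage and excision repair in 4 organs of the mouse. The genes were taken as a list of 10 of 25059 measured genes: Hspa1a, Hspa1b, Hspa8, Hspa5, Hsph1, Hspb1, Hsp90aa1, Hspd1, Dnajb1 and Bag3. The symbols were matched to the Ensembl identifiers of the files through the GENCODE annotation of mm10. No measured value was used to choose them, although earlier results of these data were known when the list was made.

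Chaperones bind unfolded or partly folded proteins and help them to fold, to stay soluble or to be degraded. The HSP70 proteins do this in cycles of ATP hydrolysis, with J-domain proteins that start the cycle and nucleotide exchange factors that end it. HSP90 acts later on client proteins such as kinases and steroid receptors, and the small heat shock proteins hold unfolded proteins without ATP. Heat, oxidants and other agents that damage proteins activate the transcription factor HSF1, which binds heat shock elements, inverted repeats of the letters GAA, before the genes of the inducible members. Some members, such as Hspa8, are transcribed in nearly every unstressed cell. Cisplatin forms platinum adducts mainly between neighbouring guanines (GG), and nucleotide excision repair cuts them out, faster from a transcribed strand on which RNA polymerase has stalled.

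The animals were wild-type C57BL/6J female mice of 6 to 7 months that weighed 25 to 28 g and lived under 12 h of light and 12 h of dark. The treated mice received a single intraperitoneal dose of 10 mg/kg cisplatin at ZT1 and the control mice the same volume of saline, and all were killed at ZT5, which is 4 h later, whereas the labels give a time after treatment of 2 h. Damage-seq, which counts adducts still in the DNA, and XR-seq, which counts the oligomers cut out by repair, were each measured in 2 libraries per organ from treated mice, and RNA-seq in 2 treated and 2 control libraries per organ, for kidney, liver, lung and spleen. The study calls its 2 libraries per group biological replicates. The RNA-seq labels of lung and spleen were corrected by the submitters after deposit, and the present labels were used.

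Reads on genes numbered 1571167 to 6441367 per library in Damage-seq, 10658675 to 59779770 in XR-seq and 15619474 to 162270280 in RNA-seq. The 2 control libraries of lung, and likewise those of spleen, were close to sampling noise (chi-square per degree of freedom 2.75 and 2.98, against 39.3 to 349 in the other 6 pairs), so each of these pairs was summed and counted as 1 sample, and its p-values rest on the spread between the 2 cisplatin libraries alone. The markers fixed for each organ were high in it, but some markers of other tissues moved with treatment. In spleen the summed level of 6 pancreatic acinar markers was 1490 to 1950 CPM (reads scaled to the library's reads on genes) after cisplatin and at most 16.2 in controls, with 5 of the 6 called higher, and in lung the summed level of 6 B cell markers was 75.6 to 106 CPM after cisplatin and 345 to 357 in controls, with 5 of the 6 called lower. The summed level of 6 adipocyte markers in lung was 116 to 335 CPM after cisplatin and 1620 to 1640 in controls, and that of 5 muscle markers, of which 4 were tested, was 145 to 279 after cisplatin and 93.8 to 97.0 in controls, with 0 of either list called. In kidney the tubule markers were at 21300 to 24500 CPM after cisplatin and 23300 to 25100 in controls. In these bulk libraries, fewer cells of a type and less RNA per cell cannot be told apart.

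The sequences before the genes are shown first, to show which members carry the letters of a heat shock element. Promoters of 8 of the 10 members were in the RefSeq promoter table (GRCm38.p6), without Hspa8 and Hsp90aa1, and the 250 bases before each RefSeq start were searched on both strands. Inverted pairs of the repeat, GAANNTTC or TTCNNGAA, were found before a RefSeq start of 5 members, Hspa1a, Hspa1b, Hspb1, Hsph1 and Hspd1, and in 12.8% of all 32851 promoters. The longer form, the pair GAANNTTC followed after any 2 bases by a further GAA, contains both pairs and was found in 0.466% of all promoters and, among the members, before 1 of the 2 RefSeq starts of Hspd1 alone. None of these letters stood in the window before Dnajb1, Bag3 or Hspa5.

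The stretches with the element before Hspa1a (chr17:34972157-34972286, minus strand), Hspa1b (chr17:34959239-34959368, minus strand) and Hspb1 (chr5:135887789-135887918, plus strand) end at the base before the start of the gene in both annotations. Those of Hsph1 (chr5:149636351-149636380, minus strand) and Hspd1 (chr1:55088054-55088081, minus strand) are the element and its flanks, which lie before a RefSeq start but largely inside the gene as GENCODE draws it, with 26 of 30 and 28 of 28 bases in an exon. Capitals mark the inverted repeats.
Hspa1a: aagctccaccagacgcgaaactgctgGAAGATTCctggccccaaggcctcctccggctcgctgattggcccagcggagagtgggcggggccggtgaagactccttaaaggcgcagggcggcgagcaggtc
Hspa1b: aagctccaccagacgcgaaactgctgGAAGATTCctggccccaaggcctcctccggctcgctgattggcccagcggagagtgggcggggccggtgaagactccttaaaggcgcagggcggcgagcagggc
Hspb1: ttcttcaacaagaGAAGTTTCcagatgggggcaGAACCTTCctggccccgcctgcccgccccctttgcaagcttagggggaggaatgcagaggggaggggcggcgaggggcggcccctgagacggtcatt
Hsph1: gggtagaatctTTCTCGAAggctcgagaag
Hspd1: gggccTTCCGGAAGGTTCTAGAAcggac
The pair begins 104 bases before the start in both Hspa1a and Hspa1b, whose 250 upstream bases are identical at 247 positions and whose last 130 are identical at 129. Hspb1 has pairs that begin 117 and 97 bases before its start. A match describes letters and no binding was measured here.

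Hspa5 was the member with a different element. The endoplasmic reticulum stress element, CCAAT and CCACG with any 9 bases between them, through which unfolded protein in the endoplasmic reticulum raises transcription, was found in 0.113% of all promoters and, among the members, before the RefSeq start of Hspa5 alone, at chr2:34772020-34772049 (plus strand). In the GENCODE annotation, where Hspa5 starts further upstream, all 30 bases of this stretch lie in an exon of Hspa5. Capitals mark the element.
Hspa5: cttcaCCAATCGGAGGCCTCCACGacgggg
The shorter CCAAT box, which lies inside this element, was found before a RefSeq start of 5 members and in 33.8% of all promoters.

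In kidney, RNA of 6 of the 10 members rose after cisplatin and none fell, and all 10 were higher in both cisplatin libraries than in both control libraries. The rises ran from 2.59-fold for Dnajb1 to 5.34-fold for Hspa1a. Over all 15462 genes tested in kidney, 5.04% passed the same test in either direction, 2.41% as higher and 2.63% as lower, and 24.3% had both cisplatin libraries above both controls. The members' median log2 fold change was 1.54, against 0.0 for all genes tested. The test was edgeR's quasi-likelihood test with a threshold of 0.4 on the log2 fold change and Benjamini-Hochberg adjustment over all genes of the organ. Levels below are RPKM (reads on the gene divided by the length of its exons and by the library's reads on genes).

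**Figure D1:**
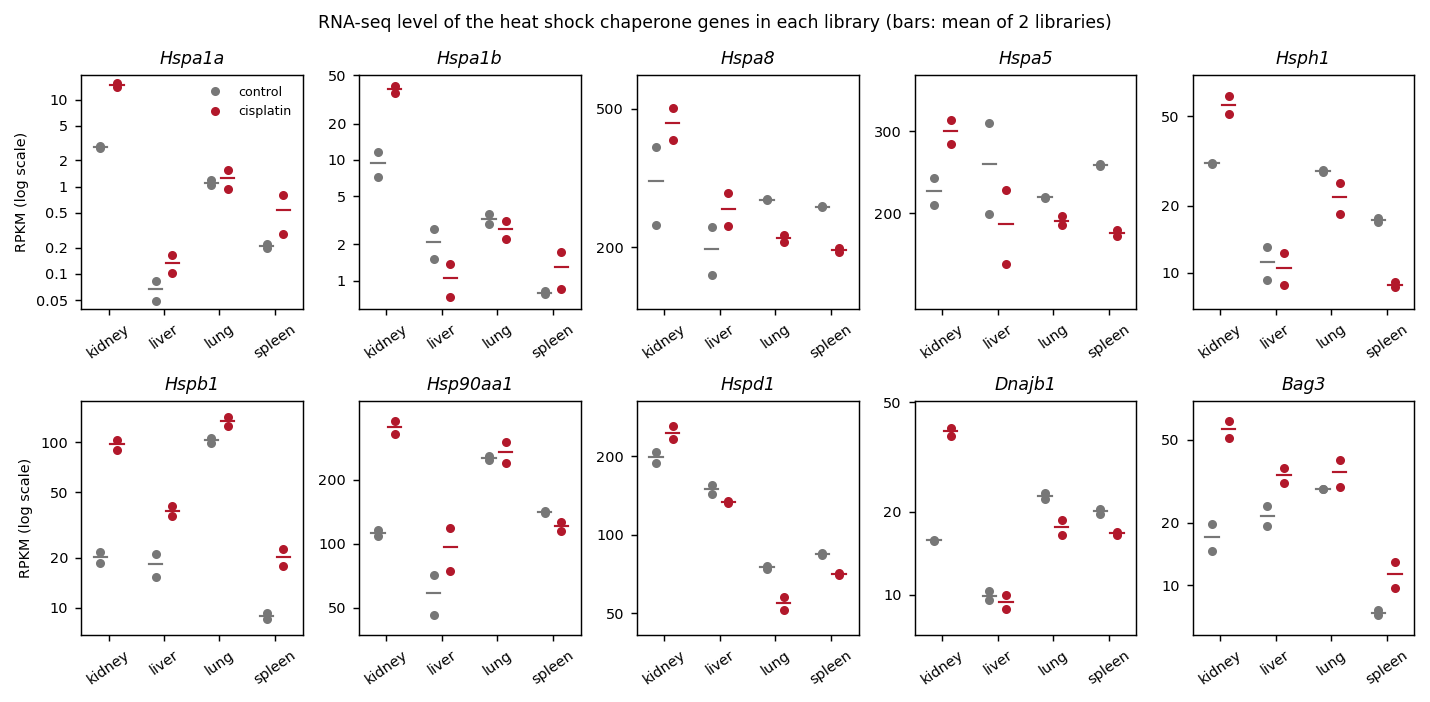
RNA level of the 10 heat shock chaperone genes in each library (RPKM, log axis), by organ, with control and cisplatin libraries as separate points and bars at the mean of the 2 libraries (the 2 controls of lung and of spleen count as 1 sample each). In kidney both cisplatin points lie above both control points for each gene, while in liver, lung and spleen genes lie on both sides.

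The inducible HSP70 proteins are encoded by a pair of nearly identical genes without introns, Hspa1a (ENSMUSG00000091971, chr17:34969190-34972156) and Hspa1b (ENSMUSG00000090877, chr17:34956436-34959238), which are strongly transcribed under heat stress. In kidney, Hspa1a was at 2.77 and 2.91 RPKM in controls and at 15.5 and 13.9 RPKM after cisplatin. Hspa1b was at 11.6 and 7.22 RPKM in controls and at 40.7 and 36.0 RPKM after cisplatin. Both genes had the groups far apart, and the log2 fold changes were 2.42 ± 0.19 (SE) for Hspa1a (adjusted p 0.00529) and 2.10 ± 0.23 for Hspa1b (adjusted p 0.0141). Of the 50-base words of the Hspa1a transcripts, 58.8% also occur in Hspa1b, and 62.3% of those of Hspa1b occur in Hspa1a. The study removed reads of low mapping quality, so reads that fit both genes may have been lost rather than divided between them. How many were lost is uncertain, and lost reads would make the levels of both genes too low. Transcripts of Hspb1, Hsp90aa1, Hspd1 and Hspa8 share 50.1%, 47.5%, 42.1% and 39.4% of their words with other genes. The same uncertainty holds for their reads.

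Hspb1 (ENSMUSG00000004951, chr5:135887919-135889563) encodes a small heat shock protein that holds unfolded proteins and binds the actin cytoskeleton. It was at 18.5 and 21.8 RPKM in kidney controls and at 104 and 90.6 RPKM after cisplatin, a log2 fold change of 2.32 ± 0.20 (adjusted p 0.00686). Bag3 (ENSMUSG00000030847, chr7:128523616-128546981) encodes a nucleotide exchange factor of HSP70 that also joins it to small heat shock proteins and to autophagy. Its level was 14.6 and 19.7 RPKM in controls and 51.0 and 61.6 RPKM after cisplatin, with a log2 fold change of 1.77 ± 0.24 (adjusted p 0.022). Dnajb1 (ENSMUSG00000005483, chr8:83608193-83612653), the J-domain partner of HSP70, was steady between replicates, at 15.8 and 15.7 RPKM in controls and 40.4 and 37.8 RPKM after cisplatin. Its log2 fold change was 1.37 ± 0.16 (adjusted p 0.0176). For these 3 genes, as for the HSP70 pair, the groups did not overlap.

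Hsp90aa1 (ENSMUSG00000021270, chr12:110690605-110702728) encodes the stress-inducible cytosolic HSP90. It was the most abundant of the members that rose, at 116 and 109 RPKM in kidney controls and 376 and 329 RPKM after cisplatin, a log2 fold change of 1.71 ± 0.16 (adjusted p 0.0102). Hsph1 (ENSMUSG00000029657, chr5:149614287-149636376), which encodes HSP110, an exchange factor and relative of HSP70, was at 30.9 RPKM on average in the 2 controls and at 61.6 and 51.3 RPKM after cisplatin. Its log2 fold change of 0.93 ± 0.16 did not pass the test against 0.4 (adjusted p 0.0645), although it passed against 0 (adjusted p 0.0239).

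The remaining 3 members are abundant in unstressed cells and none passed the test in kidney. Hspa8 (ENSMUSG00000015656, chr9:40800984-40810087) encodes the constitutive HSP70 of the cytosol and was at 232 and 387 RPKM in controls and 407 and 501 RPKM after cisplatin (log2 fold change 0.60 ± 0.31, adjusted p 0.52). Hspa5 (ENSMUSG00000026864, chr2:34771970-34777547), which encodes the HSP70 of the endoplasmic reticulum, was at 208 and 238 RPKM in controls and 282 and 317 RPKM after cisplatin (log2 fold change 0.49 ± 0.19, adjusted p 0.51). Hspd1 (ENSMUSG00000025980, chr1:55077835-55088243), which encodes the mitochondrial chaperonin HSP60, was at 207 and 189 RPKM in controls and 261 and 232 RPKM after cisplatin (log2 fold change 0.37 ± 0.16, adjusted p 0.716). The 2 control libraries of Hspa8 lay further apart than its upper control and lower cisplatin library. Summed over the 10 genes, the members took 0.325% and 0.397% of the reads on genes in kidney controls and 0.609% and 0.629% after cisplatin.

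The kidney calls depended on single libraries, for the members as for all genes, with the counts given below under other settings. With 1 library left out a group holds 1 sample, so log2 fold changes are given here. Without cisplatin replicate 1, Hspa1a (2.36), Hspb1 (2.24) and Hspa1b (2.03) were still called. Bag3 (1.92), Hsp90aa1 (1.63) and Dnajb1 (1.34) were no longer called. Without control replicate 2, Hspa8 (1.09) and Hsph1 (0.98) were called as well, while without control replicate 1 Hspa8 was at 0.23. With the replicate number as a block, 8 members passed, against 3165 of 15462 genes. Hspa8 (0.65 ± 0.11, adjusted p 0.0247) and Hsph1 (0.93 ± 0.12, adjusted p 5.54e-05) were again among them. In 1 fit over the organs 5 passed, without Hsp90aa1 (adjusted p 0.0707), against 591 of 19088 genes.

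In liver, none of the members passed the test, and neither did any of the 13862 genes tested (0%). At an unadjusted p under 0.05 there were 1 member and 1242 genes, and DESeq2 called 0 members and 189 genes. Hspb1 had the largest member difference, at 15.4 and 21.1 RPKM in controls and 41.3 and 35.9 RPKM after cisplatin (log2 fold change 1.09 ± 0.36, adjusted p 0.485), with the groups apart, and without cisplatin replicate 1 it passed (1.18 ± 0.31, adjusted p 0.016). Hspa1b differed in the other direction, at 1.52 and 2.66 RPKM in controls and 1.39 and 0.731 RPKM after cisplatin (log2 fold change -1.03 ± 0.49, adjusted p 0.723). Hspa1a was close to absent from liver, with 6 and 12 reads in controls and 9 and 17 after cisplatin. Both cisplatin libraries were above both controls for 5 members and below them for 2, against 20.2% and 18% of all genes tested. The members' median log2 fold change was 0.20, against 0.06 for all genes.

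In lung, 0 of 10 members passed, against 1.72% of the 18246 genes tested. No member had an unadjusted p under 0.05 in this lung test against 0.4, against 2316 genes. Tested against 0, 2 members had one, Hspa8 and Hspd1, both lower, against 3573 genes. DESeq2 called no member, against 518 of 16471 genes. Hspb1 was at 107 and 99.3 RPKM in controls and 143 and 126 RPKM after cisplatin (log2 fold change 0.39 ± 0.16). Hspd1 was at 76.0 and 74.1 RPKM in controls and 51.5 and 57.7 RPKM after cisplatin (log2 fold change -0.47 ± 0.16, adjusted p 0.684). Both cisplatin libraries lay above both controls, which count as 1 sample, for 2 members and below them for 5. Over all genes tested these shares were 34.1% and 33%. The median log2 fold change was -0.28 for the members and 0.01 for all genes. The B cell, adipocyte and muscle markers given above differed between the same libraries, and their part in them was not tested.

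In spleen, 0 of 10 members passed, against 0.17% of the 17676 genes tested. At an unadjusted p under 0.05 there were 2 members and 793 genes against 0.4, and 4 members and 1632 genes against 0. DESeq2 called no member, against 85 of 18441 genes. Hspb1 was at 9.22 and 8.49 RPKM in controls and 22.6 and 17.9 RPKM after cisplatin (log2 fold change 1.24 ± 0.26, adjusted p 0.734). Hsph1 was lower after cisplatin, at 16.8 and 17.6 RPKM in controls and 9.07 and 8.62 RPKM after it (log2 fold change -0.95 ± 0.16, adjusted p 0.585). The groups did not overlap for any member, with 4 higher and 6 lower after cisplatin, against 28.9% and 33.1% of all genes tested. The 2 controls count as 1 sample here, so their narrow range makes such separation easier. The 4 higher members were Hspa1a, Hspa1b, Hspb1 and Bag3, and the members' median log2 fold change was -0.22, against 0.02 for all genes. The acinar markers given above rose with these values, and their part in them was not tested.

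**Figure D2:**
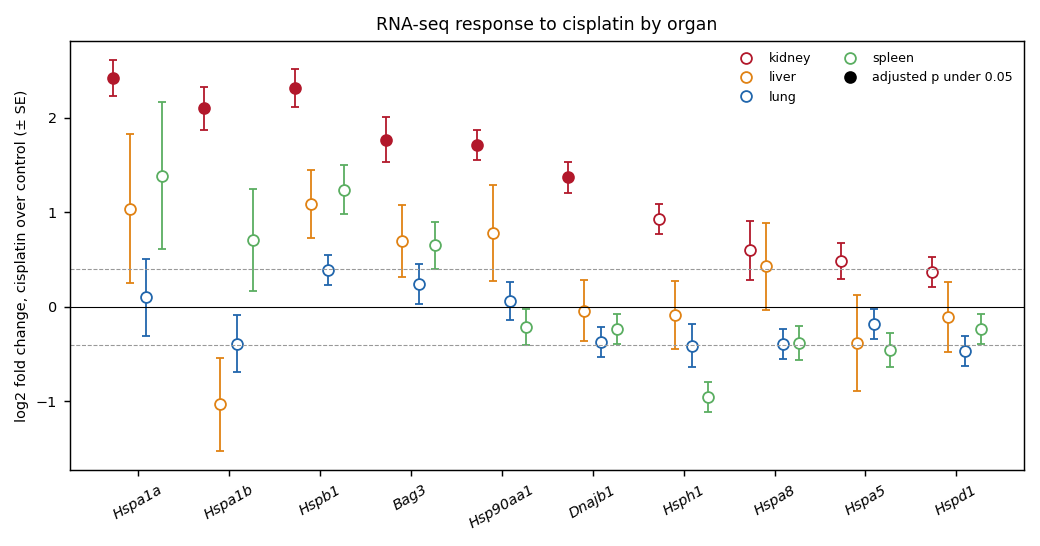
Log2 fold change of RNA after cisplatin for the 10 genes in each organ (points, with bars of 1 SE from edgeR), with filled points for calls at an adjusted p under 0.05 and dashed lines at the threshold of 0.4 in either direction. Kidney holds the 6 calls, and Hspb1 has a log2 fold change above 0 in each organ, from 0.39 in lung to 2.32 in kidney.

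The difference of the response between organs was tested itself, as the interaction of organ and treatment. None of the members passed, against 0.189% of 19088 genes tested. At an unadjusted p under 0.05 there were 6 members and 1583 genes. The smallest adjusted p of a member was 0.0834 for Dnajb1, followed by 0.143 for Hspa1b, 0.238 for Hspb1 and 0.263 for Hsph1. For Dnajb1 the log2 fold change in kidney exceeded that in liver by 1.45 ± 0.28, that in lung by 1.74 ± 0.31 and that in spleen by 1.66 ± 0.31. For Hspa1b the kidney excess over liver was 3.18 ± 0.59 (adjusted p 0.0955). The calls in kidney alone therefore do not show that the response was larger there. In this test DESeq2 called 3 members, against 735 of 16649 genes, namely Hspa1b (adjusted p 0.00171), Hsph1 (0.0389) and Dnajb1 (0.000424). Without liver cisplatin replicate 1 or 2, edgeR called 1 member, Dnajb1 (adjusted p 0.0268 and 0.0271).

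Levels in the control mice differed by organ for some members, at a share no higher than that of all genes. Of the 10 members, 6 differed in level across the control organs, against 66% of 18435 genes tested, namely Hspa1a (adjusted p 0.000155), Hspb1 (0.000228), Hspa1b (0.000786), Bag3 (0.000889), Hspd1 (0.00105) and Hspa5 (0.0494), all from edgeR's quasi-likelihood test over the organ terms. Hspa5 did not pass without kidney control replicate 1 (adjusted p 0.196), kidney control replicate 2 (0.171) or liver control replicate 2 (0.368). Hsph1 and Hsp90aa1 passed when each library was a replicate (0.00775 and 0.0306), a setting under which 16034 of 17813 genes passed. Both also passed without liver control replicate 2. Control Hspa1a ran in the order kidney, lung, spleen and liver, at 2.84, 1.11, 0.209 and 0.0663 RPKM on average, and no neighbours in that order had overlapping libraries. Control Hspb1 was highest in lung (99.3 to 107 RPKM) and lowest in spleen (8.49 to 9.22 RPKM), while its kidney and liver libraries overlapped between 18.5 and 21.1 RPKM. Hspd1 was at 189 to 207 RPKM in kidney and 144 to 155 RPKM in liver, and lower in spleen and lung, but on the TMM scale of the test liver was the highest, with a log2 difference from the mean of the other organs of 1.46 ± 0.25, against 0.95 ± 0.25 in kidney.

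The order of the organs depended on this scaling. TMM, which allows for a few very abundant transcripts taking up a library's reads, scaled control libraries by -0.77 in liver, 0.39 in lung, 0.35 in spleen and 0.02 in kidney on the log2 scale, and a negative factor raises the level. By RPKM the mean level was highest in kidney for 5 members in controls (24.4% of genes) and for 9 after cisplatin (23.7% of genes). After TMM scaling these counts were 3 in controls (23.9%) and 6 after cisplatin (22.4%), when Hspa8, Hspa5 and Bag3 were highest in liver and Hspb1 in lung. Both treated kidney libraries exceeded all treated libraries of the other organs in 9 members by RPKM (16.8% of genes) and in 5 after TMM scaling (14.5%), and in controls in 4 (18%) and 3 (16.5%). After cisplatin and TMM scaling these members were Hspa1a, Hspa1b, Hsph1, Hsp90aa1 and Dnajb1.

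Other chaperone families were compared in kidney through lists made from textbook knowledge. Of 24 further cytosolic chaperones and co-chaperones 4 rose and none fell: Dnajb4, a J-domain protein (log2 fold change 2.81 ± 0.19, adjusted p 0.00365), Hspa2, an HSP70 known from the testis (1.64, adjusted p 0.018), Dnaja1 (1.35, adjusted p 0.0234) and Dnajb2 (1.15, adjusted p 0.0321), both J-domain proteins. The median log2 fold change of that list was 0.46. None of the 8 subunits of the cytosolic chaperonin TRiC passed, with a median of 0.56 and all 8 above 0. Of 17 endoplasmic reticulum chaperones tested, 1 rose, Dnajb9, a J-domain protein of that compartment (2.55 ± 0.17, adjusted p 0.00365), and the list's median was -0.06. None of 10 mitochondrial chaperones (median 0.19), of 8 small heat shock proteins tested (median 0.73) or of 4 heat shock factors and regulators tested (median 0.12) passed.

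All 8 immediate-early genes, transcription factors and other genes that respond within minutes to many stimuli, rose in kidney, with a median log2 fold change of 3.31. The largest rise was that of Atf3, a stress-responsive transcription factor (log2 fold change 6.18, adjusted p 0.00217), followed by Egr1 (4.13), Fosb (3.57) and Fos (3.56). In liver, lung and spleen no gene of any of these lists passed, and the immediate-early medians were 1.40, 0.46 and 0.37. These lists are described by their counts and medians and were not tested as sets.

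**Figure D3:**
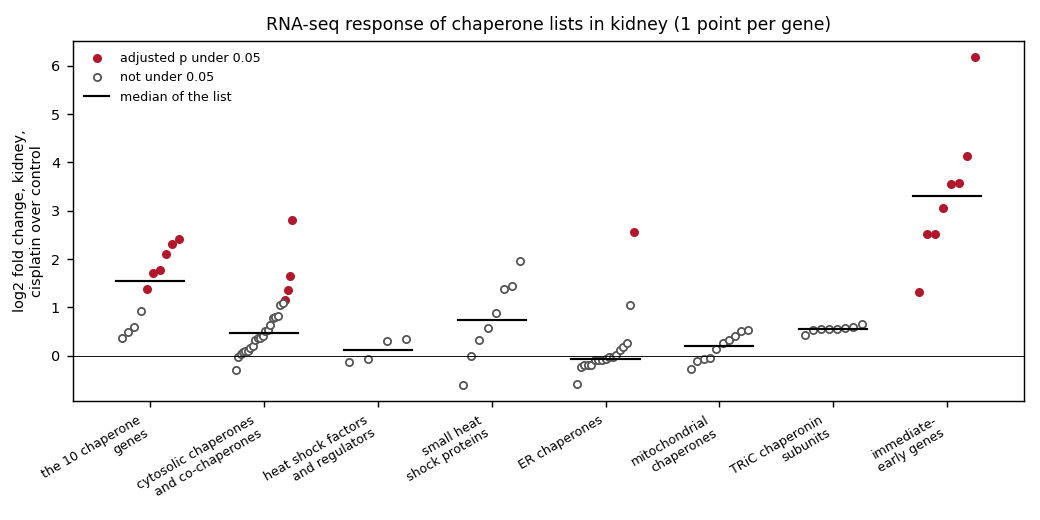
Log2 fold change of RNA after cisplatin in kidney for the genes of each list (points, filled where called) with the median of the list. The 10 heat shock chaperone genes have a median of 1.54, between the immediate-early genes at 3.31 and the other chaperone lists at -0.06 to 0.73.

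Excision repair of the members favoured the transcribed strand (TS). XR-seq reads per GG were higher on the TS than on the non-transcribed strand (NTS) for 10 of 10 members, as for 64.5% of the 20744 genes tested, and lower for none, against 9.29% of genes (edgeR with the library as a block, mean of the organs). The members' median log2 ratio of TS to NTS was 3.72, against 2.50 for all genes tested. In 79 of 80 pairs of member and library the TS was the higher strand. Such pairs were not counted over all genes, where the TS took 87.2% of XR-seq reads. By organ, the TS was called higher for 8 members in kidney and 8 in lung, against 54.8% and 57.6% of genes, and for 6 in spleen and 5 in liver, against 56.2% and 49.9%.

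For the inducible HSP70 genes nearly all repair reads lay on the TS. Over the 8 XR-seq libraries Hspa1b had 712 reads on the TS and 13 on the NTS, a TS share of 98.2% (95% Wilson interval 97.0 to 98.9, which covers counting error only). Hspa1a had a TS share of 95.8%, and its log2 ratio per GG was 4.91 ± 0.82. Hsph1 (4.68 ± 0.17), Hspa8 (4.26 ± 0.48), Bag3 (3.94 ± 0.14) and Dnajb1 (3.49 ± 0.28) followed, all above the median of all genes. Hspd1 (2.26 ± 0.27), Hspa5 (2.04 ± 0.62), Hsp90aa1 (1.49 ± 0.24) and Hspb1 (1.40 ± 0.43) lay below it. Hspa5 and Hspb1 had the largest adjusted p of the members (0.0165 and 0.016), and 8 members passed without liver replicate 1, liver replicate 2 or lung replicate 1, neither of these 2 among them.

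The members with the weaker preference varied by organ. For Hspa5 in liver, the level per 1000 GG was 14.7 and 16.6 CPM on the TS and 11.7 and 14.9 CPM on the NTS, a log2 ratio of 0.25 ± 1.12, while the TS, which has fewer GG, took 44.7% of the reads (95% interval 41.4 to 48.0). In kidney its NTS had 0 reads in one library and 106 in the other, beside 207 and 390 on the TS, so these libraries were unlike. Hspb1 in spleen had 40 reads on the TS and 58 on the NTS, and the single pair with the TS lower was its spleen replicate 2, at 3.94 on the TS and 9.44 on the NTS, in CPM per 1000 GG. Hsp90aa1 had a TS share of reads of 60.4% (55.6 to 64.9) in one liver library and 45.6% (41.2 to 50.0) in the other, whose intervals do not meet, and of 78.4% (75.9 to 80.8) in lung. Shares are not divided by the number of GG. Transcripts of Hspb1, Hsp90aa1 and Hspd1 share 50.1%, 47.5% and 42.1% of their 50-base words with other genes, and those of Hspa5 share none. XR-seq reads are shorter than these words, and sharing at their length was not measured. Hspd1 also overlaps Hspe1 on the opposite strand over 112 bases.

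**Figure D4:**
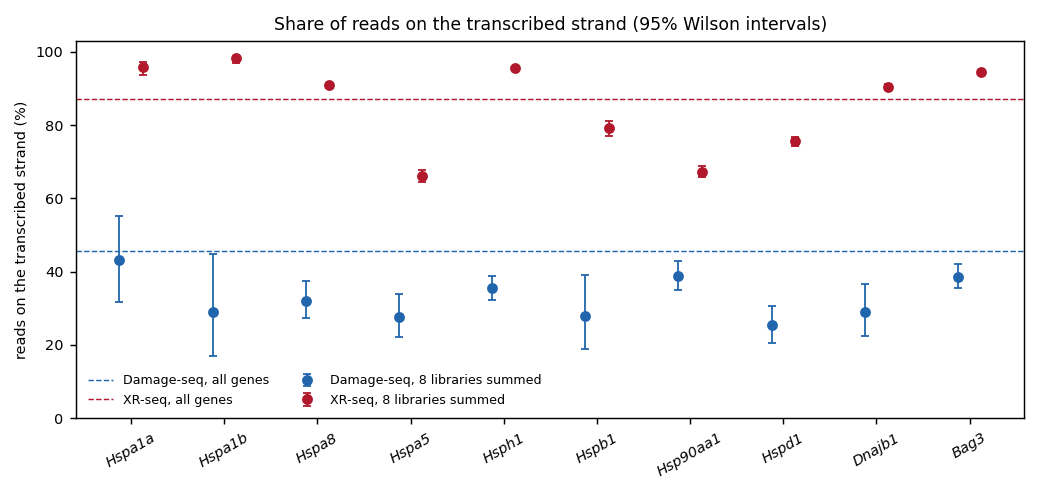
Share of reads on the transcribed strand (percent, 8 libraries summed, bars are 95% Wilson intervals) of each gene in XR-seq and in Damage-seq, with dashed lines at the share over all genes, 87.2% and 45.6%. XR-seq shares run from 66.1% for Hspa5 to 98.2% for Hspa1b and Damage-seq shares from 25.3% for Hspd1 to 43.1% for Hspa1a.

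Repair of the TS, in CPM, was highest in kidney for each of the 10 members by the mean of its libraries, which held for 30.6% of all 19717 genes tested. After TMM scaling it was highest in kidney for 8 members, against 22.2% of genes, with Hsph1 highest in spleen and Bag3 in lung. In 7 members, all but Hsph1, Dnajb1 and Bag3, both kidney libraries exceeded every other library in CPM, against 16% of genes, and in 5 after TMM scaling, against 10.8%, when Hspb1 and Hspd1 were no longer among them. By edgeR's quasi-likelihood test over the organ terms 7 members differed across organs, against 58.5% of genes: Bag3 (adjusted p 0.00022), Hsp90aa1 (0.00588), Hspa1b (0.00593), Hspb1 (0.00758), Hspa1a (0.0222), Hspa8 (0.0398) and Hspa5 (0.0429). Leaving out either liver library or spleen replicate 2 left 4 members called, and neither Hspa8 nor Hspa5 was among them. These 2 did not pass with the replicate number as a block (adjusted p 0.0652 and 0.0618) or without the filter on low counts (0.0578 and 0.0549) either, which left 5 members called. Kidney was higher than the mean of the other organs for 7 members, against 15.5% of genes.

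Hspa1a was at 27.7 and 23.1 CPM per 1000 GG of the TS in kidney, 5.60 and 13.5 in lung, 2.81 and 7.36 in spleen and 1.90 and 1.66 in liver. Both kidney libraries were above all others, and lung and spleen overlapped. On the log2 scale kidney exceeded the mean of the other organs by 2.32 ± 0.62, and the log2 difference of liver from the others was -2.28 ± 0.80. Hspa1b was at 50.0 and 21.4 in kidney, 10.2 and 11.8 in lung, 12.7 and 8.67 in liver and 0.993 and 2.60 in spleen, where these were 2 and 17 reads. Its kidney libraries were apart from all others, with a log2 difference of 2.36 ± 0.54. In these units they lay, however, further from each other than the libraries of any other organ. XR-seq reads of low mapping quality were removed as well, so how many reads of Hspa1a and Hspa1b were lost is uncertain here too.

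Hspb1 was repaired on the TS at 50.0 and 40.5 CPM per 1000 GG in kidney, 38.0 and 22.9 in lung, 21.7 on average in liver and 8.53 and 3.94 in spleen. Thus the TS repair of Hspb1 was highest in kidney while its treated RNA was highest in lung. Hsp90aa1 was at 31.8 and 21.1 in kidney, 16.4 and 17.8 in spleen, 10.1 and 13.3 in lung and 6.79 and 7.51 in liver, with no overlap between neighbours in that order. Hspa5 was at 43.3 and 53.7 in kidney, 27.4 and 34.4 in spleen, 21.3 and 28.3 in lung and 14.7 and 16.6 in liver, with spleen and lung overlapping. Hsph1 differed little, from 30.5 in a liver library to 48.6 in a kidney library (adjusted p 0.727), and neither Dnajb1 (0.365) nor Hspd1 (0.151) passed.

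**Figure D5:**
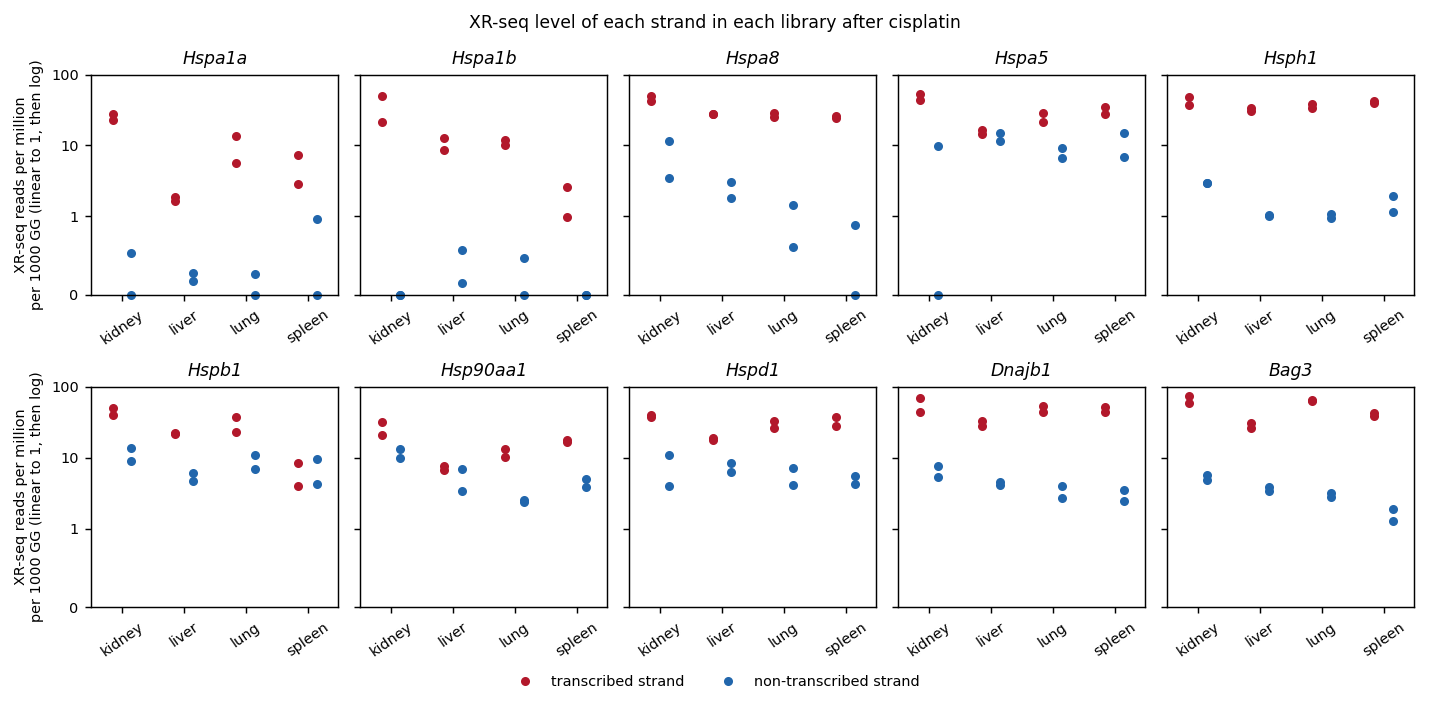
XR-seq level (CPM per 1000 GG, on an axis that is linear up to 1 and logarithmic above) of each gene on the transcribed and the non-transcribed strand in the 2 libraries of each organ. In these units kidney has the highest mean on the transcribed strand for each of the 10 genes, and Hspa1a and Hspa1b spread furthest between organs.

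On the NTS, where repair does not depend on a stalled polymerase, 0 of 8 members tested passed the test over the organs, against 27% of the 19397 genes. At an unadjusted p under 0.05 there were 1 member and 7205 genes, and DESeq2 called 1 member and 6804 of 18579 genes. Without kidney replicate 2, 3 members passed, Hspa5 (adjusted p 0.000501), Hspa8 (0.0248) and Hsp90aa1 (0.0405), and without spleen replicate 2, 1 member passed, Hspa8 (0.0447). When kidney alone was set against the mean of the other organs, 1 member was higher in kidney, Hsp90aa1 (log2 difference 1.07 ± 0.30, adjusted p 0.0422), against 5.77% of genes. Hspa1a and Hspa1b were not tested, since they had 22 and 13 NTS reads in all libraries together.

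Damage remaining at the time of death was lower on the TS. Of the 7 members with enough reads for the test, 6 had fewer Damage-seq reads per GG on the TS than on the NTS, against 42% of 20832 genes, and none had more (2.76% of genes). The median log2 ratio of the 7 was -0.91 and that of all genes was -0.25. The ratio was -1.31 ± 0.31 for Hspd1 (adjusted p 0.000132), -1.08 ± 0.40 for Dnajb1 (0.0212), -1.07 ± 0.37 for Hspa5 (0.0117), -0.91 ± 0.15 for Bag3 (6.38e-08), -0.71 ± 0.25 for Hspa8 (0.0141) and -0.52 ± 0.16 for Hsph1 (0.00328). Hsp90aa1 was at -0.24 ± 0.18 (adjusted p 0.291). Leaving out liver replicate 1 or spleen replicate 1 left 3 members called.

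Hspa1a, Hspa1b and Hspb1 had few damage reads. Of the 50-base words of their transcripts, 66.3% in Hspa1a, 62.3% in Hspa1b and 50.1% in Hspb1 also occur in other genes. The part of this sharing in the counts was not tested. Hspa1a had 28 reads on the TS and 37 on the NTS over the 8 libraries, a TS share of 43.1% (95% Wilson interval 31.8 to 55.2). Hspa1b had 11 and 27 reads (28.9%, 17.0 to 44.8) and Hspb1 had 20 and 52 (27.8%, 18.8 to 39.0). Over all genes the TS took 45.6% of damage reads, which the intervals of Hspa1b and Hspb1 do not reach and that of Hspa1a includes. These shares are not divided by the number of GG, which also differs between the strands. Hspa1a has 200 on the TS and 268 on the NTS, Hspa1b 189 and 252, and Hspb1 176 and 156. The comparison with 45.6% therefore does not show a strand difference per GG.

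By organ, the strand difference of damage was clearest in Bag3, at a log2 ratio of -1.65 ± 0.33 in liver, -1.05 ± 0.27 in lung and -0.82 ± 0.23 in kidney, all past the test, and -0.13 ± 0.34 in spleen (adjusted p 0.867). The TS was called lower for 3 of the 7 members in liver (32.6% of genes), 2 in kidney (20.8%), 2 in lung (27.1%) and 0 in spleen (13.2%). Damage on the TS differed across organs for 1 of 6 members tested, Bag3 (adjusted p 0.00569), against 32% of genes, and damage on the NTS for 2 of 7, Hsp90aa1 (0.0194) and Hspa5 (0.0444), against 18.1%. When kidney alone was set against the mean of the other organs, NTS damage was higher in kidney for 6 of 7 members, all but Hsph1, against 15.1% of genes, with log2 differences from 0.54 ± 0.20 in Bag3 (adjusted p 0.0376) to 1.17 ± 0.34 in Hspa5 (0.00705). On the TS it was higher in kidney for 2 of 6, Hsp90aa1 (0.70 ± 0.28, adjusted p 0.0448) and Hspd1 (1.56 ± 0.51, adjusted p 0.0137), against 16.7% of genes. Kidney had higher values both in NTS damage and in TS repair for several members, and the part of damage in the repair values was not tested. In the test over the organs, neither Hsp90aa1 nor Hspa5 passed on the NTS without kidney replicate 1, kidney replicate 2 or lung replicate 1, and Bag3 had an adjusted p of 0.0506 on the TS without liver replicate 1. Over the libraries left out, the number of members called ran from 1 to 2 on the TS, where a second member was added without either lung library or spleen replicate 1, and from 0 to 4 on the NTS, with 4 without lung replicate 2, 1 without kidney replicate 1 and 0 without kidney replicate 2.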

How the data were processed

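The Damage-seq and XR-seq files hold raw read counts of each gene, separately for its TS and NTS, which the authors made with cutadapt, BWA (mm10) and Picard from reads that had GG where the adduct lies. The RNA-seq files hold raw counts per gene, which the authors made with STAR and featureCounts. In each assay the study removed reads of low mapping quality. Tool names follow the submitters' processing notes, which also list DESeq2, and versions were not given in the sources used here. Libraries were poly-A selected and made with a kit that does not mark strand, so in RNA-seq the reads of genes that overlap on opposite strands cannot be told apart.

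The counts were tested as deposited with edgeR 4.0.16 and limma 3.58.1 in R 4.3.3 (TMM, the default filter on low counts, robust quasi-likelihood fits). RNA-seq changes were tested within each organ against a log2 fold change of 0.4 and other comparisons against 0, and a gene was called at a Benjamini-Hochberg adjusted p under 0.05 over all genes tested. RNA-seq pairs with a dispersion index (chi-square per degree of freedom) of 3 or below were summed, so that the lone control of lung and of spleen is assumed to vary like the cisplatin libraries. The strand tests had the library as a block and the number of GG on each strand as an offset. RPKM used the length of merged exons, and repair and damage levels are CPM over the reads on genes per 1000 GG. Intervals of shares cover counting error only, and reads have no molecular identifiers. Fits were tested on simulated data with known changes. DESeq2 1.42.0, other filters, library sizes and blocks, leaving out each library, and TMM scaling of the order of organs (chosen after seeing the data) were alternatives. In each XR-seq and Damage-seq table, 1 line with neither gene nor value was left out. Tables were read with Python 3.11.15, pandas 2.3.3, numpy 2.4.6 and scipy 1.17.1.

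The members and the gene lists were chosen with earlier results of these data known. All 10 members are named with their values, and of each other list at most the 4 genes with the largest change among those called. The 5 genes most like Hspa1b were ranked by Pearson's r over protein-coding genes. Promoter sequences are from RefSeq (GRCm38.p6), and gene positions are from GENCODE on mm10.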

Additional observations from a re-analysis of the deposited data

How the results depend on the processing

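The number of heat shock members called in kidney RNA was 6, with 8 under the replicate block and 5 in 1 fit over the organs, and ran from 3 to 8 when 1 library was left out. For control levels across organs it was 6, with 8 when each library was a replicate, a setting under which 16034 of 17813 genes passed. In liver it was 0, with 1 under the replicate block and 0 to 1 with a library left out, and in spleen it was 0, with 2 without the filter on low counts, 1 under the replicate block with each library a replicate and 0 with any library left out. In lung it was 0 under all settings. For the response that differs between organs it was 0, with 4 when each library was a replicate, 2 without the filter, 6 under the replicate block, 3 by DESeq2 and 0 to 1 with a library left out. For repair on the TS across organs it was 7, with 5 under the replicate block, 5 without the filter, 8 when reads on genes were the library size and 4 to 7 with a library left out, and on the NTS it was 0, with 3 when reads on genes were the library size, 1 by DESeq2 and 0 to 3 with a library left out. For the strand difference of damage it was 6, with 3 by DESeq2 and 3 to 6 with a library left out. For damage on the TS it was 1, with 3 when reads on genes were the library size, 2 without the filter, 2 under the replicate block, 0 by DESeq2 and 1 to 2 with a library left out, and for damage on the NTS it was 2, with 1 under the replicate block, 0 by DESeq2 and 0 to 4 with a library left out. Of 1271 values of single genes under other settings, 1148 stayed on the same side of the threshold, 62 were no longer called, 61 became called and 0 reversed. Over all genes, kidney calls numbered 780, against 1901 without the filter, 1713 against a log2 fold change of 0, 3165 under the replicate block and 124 to 1827 with a library left out. In liver they numbered 0, against 189 by DESeq2, 181 without the filter, 521 in 1 fit over the organs, 950 under the replicate block and 21 to 2185 with a library left out. In lung they numbered 314, against 518 by DESeq2, 1364 without the filter, 755 against a log2 fold change of 0, 65 in 1 fit, 1608 with each library a replicate, 1859 with the replicate block as well and 0 to 269 with a library left out. In spleen they numbered 30, against 85 by DESeq2, 269 without the filter, 68 with each library a replicate, 126 with the replicate block as well and 26 to 97 with a library left out. The response differed between organs for 36 genes, against 625 with each library a replicate, 194 without the filter, 1842 under the replicate block and 735 by DESeq2. For lung and spleen, RNA-seq tests of treatment without a cisplatin library came from 1 fit over the organs. Leaving out a control library there removed part of a summed sample. Replicates share only a number. The differences between replicates 1 and 2 of control and cisplatin libraries correlated over genes at 0.622 in kidney, 0.283 in spleen, 0.516 in liver and 0.094 in lung, with 2 pairs per organ. Leaving out a replicate number from every group at once left no degrees of freedom across organs and was not run there, and leaving out each library in turn there was chosen after seeing the data. Over all genes, repair on the TS differed for 11530 of 19717, and for 12164 of 19722 with reads on genes as library size. It differed for 11215 of 19717 under the block and 12075 of 22971 without the filter. On the NTS it differed for 5230 of 19397, 6536 of 19625 with that library size and 6804 of 18579 by DESeq2. The causes of these changes were not tested. With too few Damage-seq reads, 3 members had no strand test. Over all genes, damage was lower on the TS for 8741 of 20832, and 7251 of 22822 by DESeq2. Damage on the TS differed across organs for 6315 of 19748, and 6739 of 19786 with reads on genes as library size. It differed for 6227 of 24523 without the filter, 6363 of 19748 under the block and 3112 of 15489 by DESeq2. On the NTS damage differed for 3669 of 20249, 3435 of 20249 under the block and 1346 of 15500 by DESeq2.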

Other observations

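The genes whose RNA followed Hspa1b most closely over the 14 RNA-seq samples, after the mean of each organ was removed, were Nab2, a corepressor of the EGR transcription factors (Pearson's r 0.899), Uap1 (0.899), Mid1ip1 (0.888), Ppic (0.876) and Lsr (0.863), of 14939 protein-coding genes ranked. These samples share the contrast of cisplatin with control in each organ, and the values are descriptions. Among the heat shock members, Dnajb1 came closest (0.773), followed by Hspa1a (0.666), Bag3 (0.61), Hspb1 (0.601), Hsph1 (0.533), Hsp90aa1 (0.516), Hspd1 (0.471) and Hspa5 (0.423), with Hspa8 last (0.246). By this measure Hspa1a, which shares most of its sequence with Hspa1b, was less like it than Dnajb1 was. Hspa1a had only 6 to 17 reads in a liver library and 23 to 88 in a spleen library. The part of these low counts in its r was not tested.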
